A study of Mus musculus with 2 samples.

Results

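The CpGs described here lie in internal coding exons of mouse autosomes, as measured in XX and XO Xmas mouse embryonic stem cells (mESCs). They were chosen by position alone, as rows of the deposited table that fall in a coding segment of a protein-coding gene (GENCODE M21, GRCm38), more than 2 kb from every annotated transcription start and outside every first exon. Of 1756096 autosomal rows, 294034 lay in coding sequence, and 83236 met all parts of the rule (4.74% of autosomal rows), since the distance limit removed 209034 and the first exons a further 1764. A row is 1 cytosine of a CpG on 1 strand, and the 83236 rows belong to 63951 CpGs, 11837 exons and 6536 genes, with a median of 7 rows per gene and the most, 253, in Ttn. The comparison set was the 159374 intron rows of the same genes under the same distance limit, which came from 5508 of these genes.

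Xmas mESCs are female cells of the strain given as C57/Bl6 that carry a GFP reporter on an X chromosome and an mCherry reporter on the other, both driven by the endogenous Hprt locus, so that FACS separates XX cells, which have both colours, from XO cells, which have lost an X chromosome. Both populations came from Xmas cultures kept in 2i/LIF medium by the study's modified culture method, for 7 passages according to the labels (the paper states a larger number), and DNA methylation was read by reduced representation bisulfite sequencing (RRBS). RRBS covers a CpG-rich part of the genome, and the methylation level of a cytosine is the percentage of its reads that resisted bisulfite conversion. There was 1 library per karyotype, so no difference between karyotypes has a replicate error, no test was made, and XX and XO below stand for these libraries.

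In mammals, DNA methylation in the bodies of transcribed genes is laid down largely by DNMT3 enzymes recruited to histone marks of transcription elongation, whereas CpG-dense sequence, most often at promoters, is usually kept free of it. Coding exons differ from the introns around them because the codons they must preserve hold CpGs that introns tend to lose by mutation. Female mESCs, in which both X chromosomes are active, are known for low methylation across the genome, and XO cells resemble male cells in this respect.

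To show what these exons look like, 8 stretches of up to 300 bp are printed below, taken from the exons that a fixed rule names: the 2 largest falls from XO to XX (Ntf3, Vstm4), the 2 largest rises (Jph2, Tekt5), the 2 highest levels in XX (Slc29a3, Ppl) and the 2 exons with the most rows among those under 5% in both libraries (Sobp, Prdm13). They are read 5′ to 3′ on the strand of the gene in GRCm38, and capitals mark the CpGs for which the table holds a value.
Ntf3: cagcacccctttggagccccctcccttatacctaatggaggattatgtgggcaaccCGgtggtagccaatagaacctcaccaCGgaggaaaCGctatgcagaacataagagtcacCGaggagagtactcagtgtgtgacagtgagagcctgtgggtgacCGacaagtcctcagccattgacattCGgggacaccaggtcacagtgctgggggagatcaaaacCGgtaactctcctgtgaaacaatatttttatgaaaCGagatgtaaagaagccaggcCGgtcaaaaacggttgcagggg
Vstm4: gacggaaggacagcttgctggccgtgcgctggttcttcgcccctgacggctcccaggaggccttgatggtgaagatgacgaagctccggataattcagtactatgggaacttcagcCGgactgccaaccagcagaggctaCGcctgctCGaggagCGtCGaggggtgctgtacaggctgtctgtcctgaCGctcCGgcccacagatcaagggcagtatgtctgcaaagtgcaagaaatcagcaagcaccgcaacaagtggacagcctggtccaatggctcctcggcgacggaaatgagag
Jph2: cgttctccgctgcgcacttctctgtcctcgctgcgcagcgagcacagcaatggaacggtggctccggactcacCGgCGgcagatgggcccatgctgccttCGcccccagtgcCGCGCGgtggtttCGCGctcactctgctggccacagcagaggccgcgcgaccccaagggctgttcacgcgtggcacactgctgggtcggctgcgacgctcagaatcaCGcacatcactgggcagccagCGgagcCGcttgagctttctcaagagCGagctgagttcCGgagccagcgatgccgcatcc
Tekt5: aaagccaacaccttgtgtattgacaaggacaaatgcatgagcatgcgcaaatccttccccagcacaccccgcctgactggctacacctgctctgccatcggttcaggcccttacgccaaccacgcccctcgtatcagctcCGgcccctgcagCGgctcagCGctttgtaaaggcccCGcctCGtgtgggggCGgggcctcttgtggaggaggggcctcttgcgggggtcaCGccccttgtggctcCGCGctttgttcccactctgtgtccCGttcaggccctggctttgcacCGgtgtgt
Slc29a3: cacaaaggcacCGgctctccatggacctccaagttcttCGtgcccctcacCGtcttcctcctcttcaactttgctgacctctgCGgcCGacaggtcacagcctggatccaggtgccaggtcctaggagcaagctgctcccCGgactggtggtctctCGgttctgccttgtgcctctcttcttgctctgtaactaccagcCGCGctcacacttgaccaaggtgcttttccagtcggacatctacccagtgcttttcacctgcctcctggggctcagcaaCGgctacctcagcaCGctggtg
Ppl: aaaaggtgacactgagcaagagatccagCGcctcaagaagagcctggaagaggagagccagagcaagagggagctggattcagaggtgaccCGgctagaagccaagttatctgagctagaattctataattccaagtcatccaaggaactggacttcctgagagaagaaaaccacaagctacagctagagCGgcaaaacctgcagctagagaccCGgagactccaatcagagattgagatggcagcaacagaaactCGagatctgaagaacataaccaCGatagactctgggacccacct
Sobp: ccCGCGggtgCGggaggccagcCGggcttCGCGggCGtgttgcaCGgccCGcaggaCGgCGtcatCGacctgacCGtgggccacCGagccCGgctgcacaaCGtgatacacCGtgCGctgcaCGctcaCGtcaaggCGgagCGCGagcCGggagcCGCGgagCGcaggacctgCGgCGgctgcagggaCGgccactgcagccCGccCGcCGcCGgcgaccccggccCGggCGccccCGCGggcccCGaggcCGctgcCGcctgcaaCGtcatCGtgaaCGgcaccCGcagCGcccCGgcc
Prdm13: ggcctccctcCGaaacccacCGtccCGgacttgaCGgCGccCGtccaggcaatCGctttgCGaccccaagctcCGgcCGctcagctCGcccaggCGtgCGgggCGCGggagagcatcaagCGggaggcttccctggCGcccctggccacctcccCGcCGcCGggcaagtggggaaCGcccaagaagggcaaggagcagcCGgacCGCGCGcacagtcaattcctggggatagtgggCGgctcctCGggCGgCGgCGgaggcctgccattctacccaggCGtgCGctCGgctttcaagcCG

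The Ntf3 stretch (chr6:126101880-126102179, reverse strand) lies in exon 3 of 3 of the gene, which encodes neurotrophin 3, a growth factor for sensory neurons. Its exon held 15 rows with a mean of 67.6% ± 19.9 in XO (SD over rows; range 33.3 to 100%) and 12.8% ± 10.7 in XX (range 0 to 38.1%). All 15 rows were lower in XX, against 69.8% of all exon rows and 53.5% of all autosomal rows. Mean XX minus XO was -59.95 points over forward rows and -49.04 points over reverse rows. The Ntf3 and Vstm4 exons were named for their falls, so agreement among their rows and strands is no separate evidence of a fall. The Vstm4 stretch (chr14:32863632-32863931, forward strand) is the end of exon 2 of 8, and the gene encodes an immunoglobulin-domain membrane protein. Its 11 rows averaged 71.9% ± 15.4 in XO and 19.9% ± 14.3 in XX, and the lowest XO row (52.2%) was above the highest XX row (46.4%).

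The opposite direction was seen in Jph2 (chr2:163375990-163376289, reverse strand, exon 3 of 7), which encodes junctophilin 2, the protein that ties the plasma membrane of heart muscle to its calcium store. Its 13 rows averaged 3.11% ± 3.50 in XO and 41.2% ± 24.9 in XX, where single rows ran from 0 to 69.2%, and XX minus XO was 62.6 points over forward rows and 22.7 over reverse rows. The later exon 5 of Jph2 held 102 rows and was at 2.73% in XX and 4.74% in XO, so the high XX level was found in exon 3 and not in exon 5. Tekt5 (chr16:10358009-10358308, reverse strand, exon 7 of 7), which encodes a tektin, a filament protein of sperm flagella, was at 14.5% ± 2.68 in XO and 35.6% ± 18.5 in XX over 11 rows, with XX higher by 13.2 and 27.8 points on the forward and reverse strands. Jph2 exon 3 and Tekt5 exon 7 each had 0 rows that were lower in XX. Both were named for their rises, so this count is no separate evidence of a rise.

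The highest levels in XX were in Slc29a3 (chr10:60715965-60716264, reverse strand, exon 6 of 6), which encodes a nucleoside transporter of lysosomes, with 74.9% ± 23.1 in XX and 78.4% ± 13.9 in XO over 13 rows, and in Ppl (chr16:5087613-5087912, reverse strand, exon 22 of 22), which encodes periplakin, a desmosome-associated protein of epithelia, with 62.3% ± 14.2 and 76.7% ± 24.7 over 11 rows. Of the rows, 8 of 13 in Slc29a3 and 9 of 11 in Ppl were lower in XX, and in both exons the mean difference was within the SD over XO rows. Sobp (chr10:43021407-43021706, reverse strand, exon 6 of 7), which encodes a zinc finger protein named for binding to sine oculis factors, and Prdm13 (chr4:21679481-21679780, reverse strand, exon 4 of 4), which encodes a PRDM family regulator of neural development, have CpGs at a density usually seen at promoters although these exons lie 12224 and 5984 bp from the nearest annotated start. The Sobp exon held 183 rows at 3.17% ± 5.68 in XX and 1.80% ± 4.35 in XO, and the Prdm13 exon 177 rows at 2.61% ± 3.47 and 2.25% ± 3.98. The median row of Sobp had 28 CpGs within 100 bp on either side, against 7 in Ntf3.

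Over all 83236 rows, mean methylation in internal coding exons was 23.2% ± 21.5 (SD over rows) in XX and 36.4% ± 27.7 in XO, a difference of -13.2 points, so that XX held 63.8% of the XO level. The medians were 17.8% and 34.1%. In XX, 34.4% of exon rows were at least 20 points lower than in XO, against 22.4% of all autosomal rows, and 3.65% were at least 20 points higher, against 3.69% of all autosomal rows. Exon rows were thus lower by this margin more often than the table as a whole, and higher about as often. At the distance limit there was no jump, since coding rows outside first exons averaged 21.6% in XX and 31.7% in XO at 1800 to 2000 bp from a start and 21.7% and 32.2% at 2000 to 2200 bp. The coding rows that the rule leaves out, which lie near a start or in a first exon, averaged 11.7% in XX and 15.9% in XO over 210798 rows. On each of the 19 autosomes the exon mean was lower in XX, with differences from -10.5 points (chromosome 7) to -16.9 points (chromosome 16).

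The table gives no read counts, so the depth of each value is unknown and no counting interval could be computed. The 19285 member CpGs with values on both strands show how well 1 value is determined there. They were less methylated than exon rows as a whole, with 15.5% in XX and 27.95% in XO on the reverse strand. At these CpGs the strands differed by a median of 6.41 points in XX and 9.52 points in XO, and XX minus XO on a strand correlated with that on the other at r = 0.310 across these CpGs, which share their libraries. Single rows are therefore given little weight below, and exons and genes are described by the means of several rows. The exon level did not depend on which strand was read, with 23.1% in XX and 36.2% in XO on the coding strand and 23.3% and 36.5% on the template strand.

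Coding exons were less methylated than the introns of the same genes in both libraries. Intron rows averaged 30.8% ± 23.3 in XX and 47.2% ± 27.3 in XO (-16.4 points, XX at 65.3% of XO), which gives an exon minus intron difference of -7.61 points in XX and -10.8 points in XO. Of intron rows, 42.4% were at least 20 points lower in XX and 4.20% at least 20 points higher. The exons also differed from the introns in sequence: an exon row had on average 11.1 CpGs within 100 bp on either side, and an intron row 5.75. Rows on soft-masked repeat bases were 1.25% of the exon rows and 11.04% of the intron rows, and rows at the centre of a CCGG site, the sequence cut in RRBS, were 30.5% and 49.7%.

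When rows were grouped by this local CpG count, the gap between exons and introns closed. With 3 or 4 CpGs nearby, exon rows averaged 35.8% in XX and 54.6% in XO and intron rows 34.8% and 52.8%. With 7 or 8, the values were 28.03% and 45.4% in exons and 27.3% and 43.2% in introns, and with 11 to 13 they were 19.4% and 31.8% against 19.5% and 30.8%. Exons were above introns in 7 of 8 count classes in XO and in 6 of 8 in XX. With the classes weighted as in the exon rows, exons were 1.496 points above introns in XO and 0.547 points above in XX, so the direction of the exon to intron difference turned with the local CpG count held equal. Levels fell steeply with CpG count in both kinds of sequence, from 58.4% in XO in exon rows with 1 or 2 CpGs to 10.2% in those with 18 or more.

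**Figure D1:**
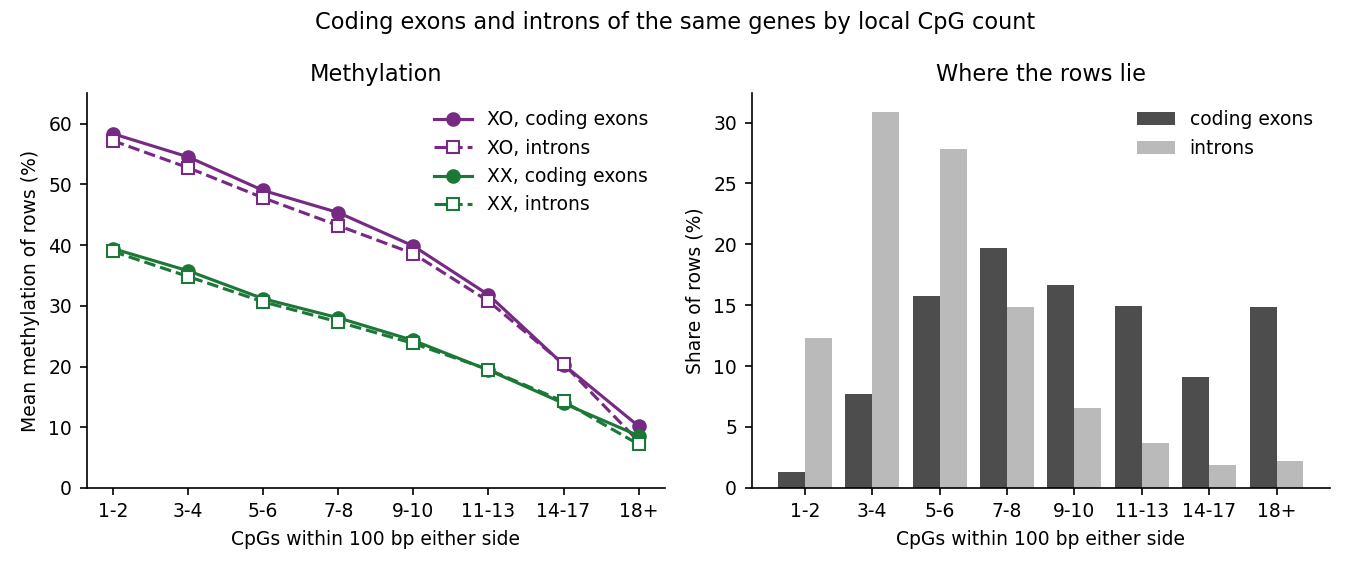
Left, mean methylation of rows (%) in XO and XX for coding exons (filled circles) and introns of the same genes (open squares) by the number of CpGs within 100 bp on either side; right, the share of exon and intron rows (%) in each class. Exons and introns with the same CpG count lie close together, while most intron rows have few CpGs nearby and exon rows have more.

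The share of methylation that XX kept was lower in exons than in introns in all 8 count classes, for example 61.8% against 63.3% with 7 or 8 CpGs. In exon rows with 18 or more CpGs nearby, XX held 84.5% of a low XO level, with means of 8.59% and 10.2%. CpG-dense exon sequence, meaning windows of 500 bp that were 55% or more G and C and had 0.65 or more of the CpGs expected from their base composition, held 16280 rows at 10.04% in XX and 12.1% in XO, and the other 66956 rows were at 26.4% and 42.3%. The share kept also varied with the XO level itself, as read at CpGs with values on both strands. In exons these CpGs averaged 15.5% in XX and 27.95% in XO on the reverse strand, below the means of all exon rows. Their shares are therefore not directly comparable with the 63.8% of all exon rows. Because grouping rows by a noisy value biases that value, CpGs with both strands were put in groups by the XO value of the forward cytosine, and the level was then taken from the reverse cytosine: XX held 64.7% of XO in exons in the group under 10%, 53.1% from 10 to 20%, 50.01% from 20 to 30%, 55.02% from 50 to 60% and 65.5% from 90 to 100%, so the share fell and then rose with the XO level, and it was below that in introns in 10 of 10 groups.

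Methylation rose with exon number, counted in the coding transcript with the longest coding sequence. The 11410 rows in the second exon averaged 19.7% in XX and 29.8% in XO. The 6423 rows of exon 5 were at 23.1% and 35.5%, the 16745 rows of exons 11 to 20 at 24.6% and 39.4%, and the 1997 rows of exon 41 and later at 29.3% and 46.9%. The mean rose from each of the 8 classes of exon number to the next in both libraries, and XX minus XO widened from -10.1 points in the second exon to -17.6 points in exon 41 and later. The share kept in XX narrowed from 66.1% to 62.4%.

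**Figure D2:**
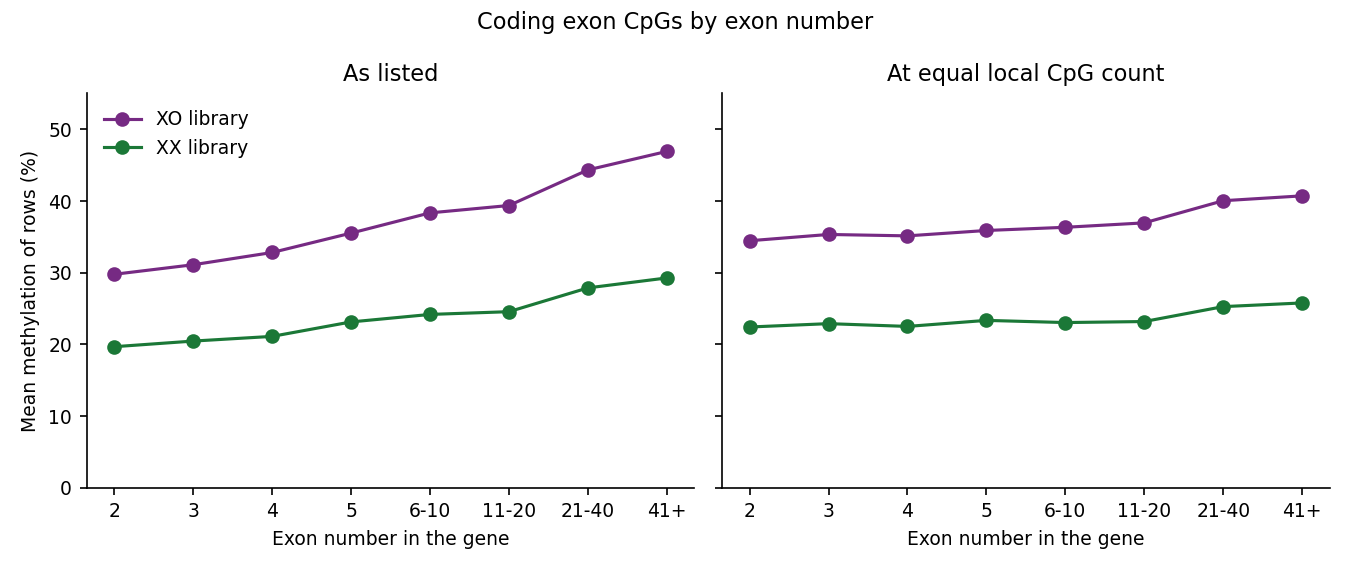
Mean methylation of rows (%) in XO and XX by exon number, as listed (left) and with every class weighted to the same mix of local CpG counts (right). As listed, XO rises from 29.8% in the second exon to 46.9% in exon 41 and later, and at equal CpG count from 34.5% to 40.7%.

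The CpG count fell along the same axis, from 13.3 CpGs within 100 bp on either side in the second exon to 8.58 in exon 41 and later, and the share of rows that lay in the last coding exon of their gene fell from 48.2% to 10.4%. With the mix of CpG counts set to that of all exon rows, the XO level ran from 34.5% in the second exon to 36.3% in exons 6 to 10 and 40.7% in exon 41 and later, and the XX level from 22.4% to 23.1% and 25.8%. The ends of the range kept their order, but the weighted means no longer rose from each class to the next: XX lay between 22.4% and 23.4% from the second exon to exon 20, and XO went from 35.3% in exon 3 to 35.1% in exon 4. This weighting of exon classes was added after the unweighted values were seen. Within classes of distance from the start, exons 6 and later were above exons 2 to 5 in both libraries in 6 of 6 classes, with 37.2% against 28.9% in XO at 2 to 3 kb and 45.1% against 37.9% at 20 to 50 kb. Exons 2 to 5 had more CpGs nearby (13.6 against 10.2 at 2 to 3 kb), and at equal CpG count the same XO values were 35.98% against 34.2% and 38.9% against 38.1%. Levels were higher far from a start: exon rows at 2 to 3 kb averaged 21.8% in XX and 33.1% in XO, and those beyond 50 kb 26.1% and 43.3%. The mean CpG count fell over this range from 11.8 to 9.54. At equal CpG count the levels were 23.0% in XX and 35.1% in XO at 2 to 3 kb. Beyond 50 kb they were 23.9% and 39.7%, so little of the rise was left in XX. Exons were below introns in both libraries in all 6 distance classes as listed, but at equal CpG count they were above introns in 5 of 6 in each library, with 35.1% against 30.5% in XO at 2 to 3 kb and, the other way, 39.7% against 42.1% beyond 50 kb.

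The last coding exon stood below the others. Its 28845 rows averaged 18.8% in XX and 28.1% in XO, and the 52922 rows in earlier exons 25.6% and 40.9%. The last coding exon was below earlier exons of the same number in XO in 5 of 5 number classes as listed. At equal CpG count a gap in XO remained in exon 3 (34.0% against 37.0%) and exons 6 to 10 (34.6% against 37.4%). It also remained in exons 11 to 20 (33.9% against 38.4%). There was no such gap in exons 4 and 5, with 35.4% in XO in both and 23.4% against 22.6% in XX. Last coding exons from exon 21 onwards had no weighted value. Last coding exons from exon 3 onwards were at 19.2% and 28.9%, and second exons that were not the last coding exon at 22.4% and 34.9%, so the last minus second exon difference was -5.96 points in XO and -3.13 points in XX. Last coding exons had 14.1 CpGs nearby and earlier exons 9.42, and at equal CpG count their levels were 22.5% and 34.3% against 23.7% and 37.5%. Within CpG count classes, the difference between last and second exons shrank to -1.21 points in XO and -0.343 points in XX. In genes whose names begin with Zfp, a class of zinc finger genes chosen after their values were seen, the last coding exon often encodes the zinc finger array and held 2264 rows at 20.5% in XX and 29.2% in XO, close to the 18.6% and 27.96% of the other genes.

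Levels fell with exon length up to 1000 bp, where length is that of the coding part of the exon, without untranslated sequence. Exons under 100 bp averaged 30.5% in XX and 46.8% in XO, those from 150 up to 250 bp 25.7% and 42.0%, and those from 500 up to 1000 bp 18.5% and 28.3%, whereas exons of 1000 bp or more were at 20.95% and 30.8%. At equal CpG count the XO level lay between 35.1% and 37.8% in every length class, so little of this order was left. By place in the coding sequence rather than by exon, cut into 10 equal parts, XO was at 39.5% in the first and 32.9% in the last, and at 36.0% and 34.0% at equal CpG count.

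Across the edges of exons there was no step. At the acceptor side, intron rows over 200 and up to 300 bp upstream averaged 35.1% in XX and 51.8% in XO, those within 25 bp of the exon 28.04% and 45.6%, the first 25 bp of the exon 28.6% and 45.4%, and positions 75 to 99 of the exon 24.1% and 41.1%. At the donor side, the last 25 bp of the exon were at 28.1% and 45.9%, the next 25 bp of the intron at 28.5% and 45.0%, and the intron over 200 and up to 300 bp downstream at 34.9% and 52.0%. Levels declined from the intron towards the middle of the exon on both sides, and the mean CpG count rose over the same stretch from 4.75 to 9.58 at the acceptor side. The share kept in XX declined along it too, from 67.7% in the intron to 58.8% in the exon.

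**Figure D3:**
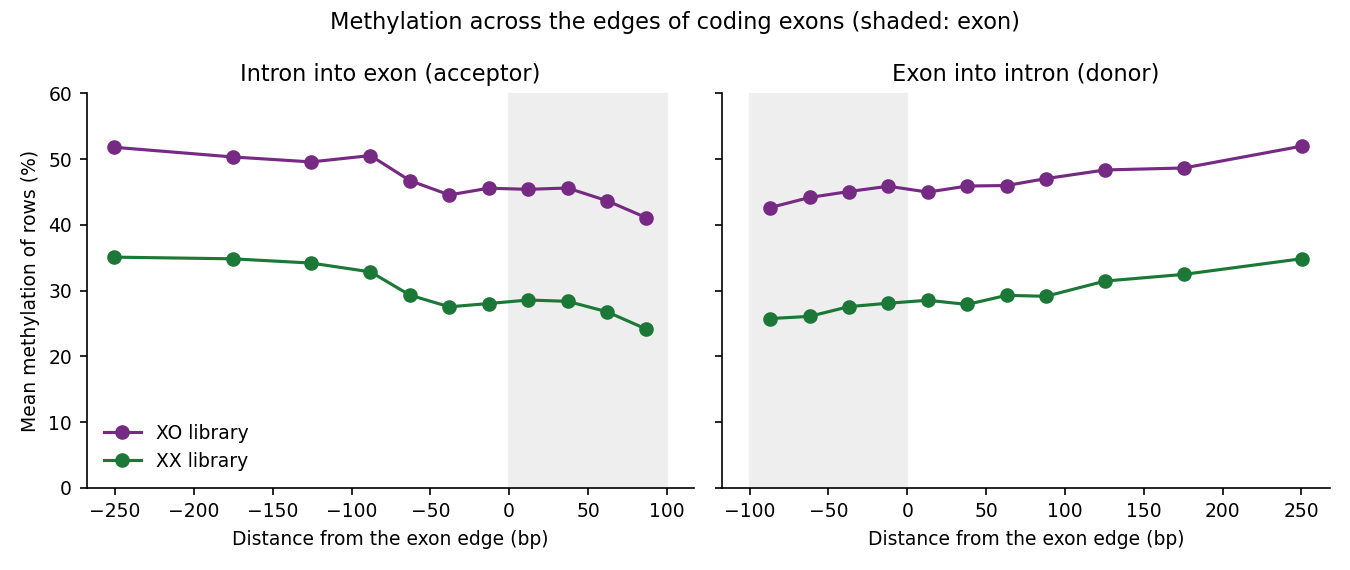
Mean methylation of rows (%) in XO and XX by distance (bp) from the acceptor edge (left) and the donor edge (right) of coding exons of at least 100 bp beside introns of at least 600 bp, with the exon shaded. Both lines decline gradually from the intron into the exon, with 45.6% just before and 45.4% just after the acceptor edge in XO.

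Levels were also read by codon. XO levels were 39.3% where the C was the first base of a codon, 34.3% where it was the second and 34.8% where it was the third, and 37.2%, 35.4% and 36.2% at equal CpG count. In the first case the codon is an arginine codon, and these were at 40.99% for CGA, 40.7% for CGG, 37.4% for CGT and 35.8% for CGC. Among the codons that end in CG, alanine GCG was lowest at 30.6% and proline CCG and threonine ACG were both at 35.8%. The mean CpG count was 9.56 around CGA and 15.0 around GCG. At equal CpG count XO was at 38.1% for CGA, 35.9% for CGG and 33.7% for CCG. Exons found in every coding transcript of their gene averaged 23.8% in XX and 37.5% in XO, and exons found in some of them 23.7% and 37.0%.

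Gene by gene, 4102 genes had at least 5 exon rows. Their median was 24.97% in XX (quartiles 15.7% and 35.1%) and 43.1% in XO (28.4% and 56.1%), with a median XX minus XO of -15.6 points (quartiles -23.2 and -7.56). Of these genes 3788 (92.3%) were lower in XX, 312 were higher and 2 were equal, and the counts at 20 points were 1429 lower (34.8%) and 6 higher. In XO 1506 genes were at or above 50%, and in XX 262 were. Both libraries were under 10% in 207 genes.

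Of these genes, 2838 also had at least 5 intron rows. The median exon minus intron difference within a gene was -4.20 points in XO (quartiles -16.98 and 7.21) and -4.95 points in XX (quartiles -15.0 and 4.67), and exons were below introns in 59.5% of genes in XO and 63.5% in XX. The spread was wide on both sides, as exons were at least 20 points below introns in 572 genes in XO and at least 20 points above them in 270. Exons and introns were both lower in XX in 2574 of these genes, and the median XX minus XO was -15.9 points in exons and -16.6 points in introns. When only rows with 5 to 8 CpGs nearby were used, a choice made after seeing the data, 1291 genes remained and the median exon minus intron difference was 2.02 points in XO and -0.749 points in XX.

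**Figure D4:**
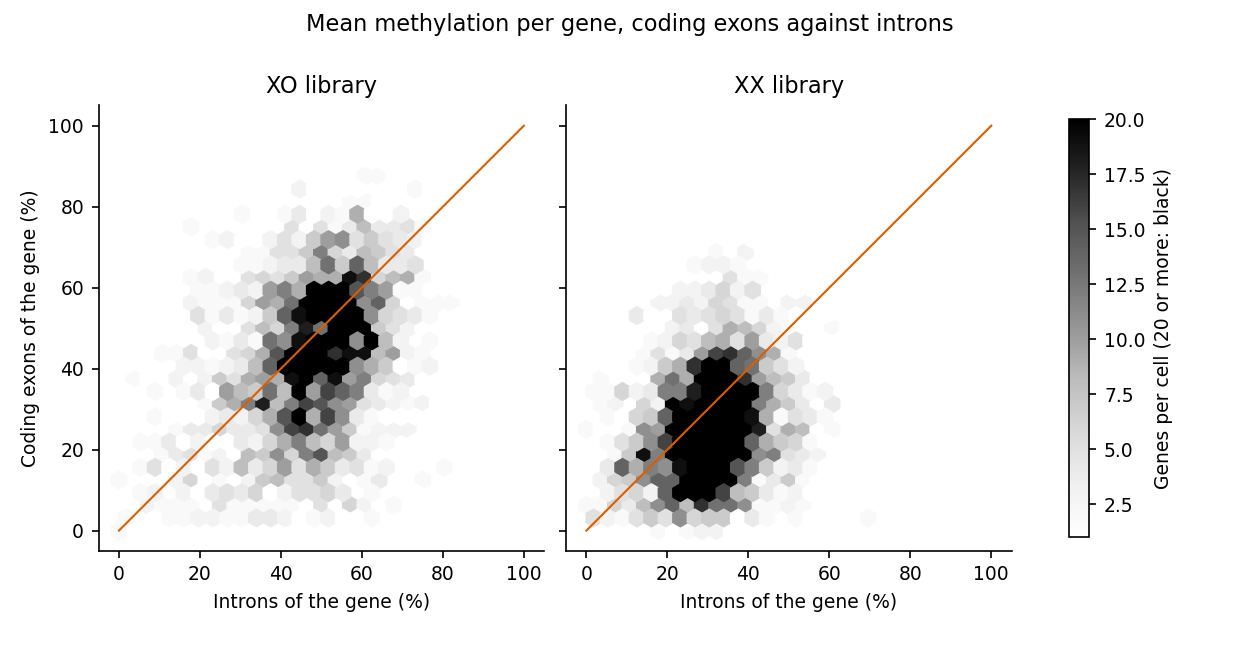
Mean methylation (%) of the coding exons of a gene against that of its introns, for 2838 genes with at least 5 rows of each, in XO (left) and XX (right), with darker cells holding more genes and the line marking equality. More genes lie below the line than above it (59.5% in XO and 63.5% in XX), and the whole cloud lies lower in XX.

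Exons of the same gene differed widely. Of the 11837 exons, 7898 had at least 3 rows, and their median was 25.1% in XX and 44.8% in XO, with 6971 (88.3%) lower in XX. At 20 points, 3099 exons (39.2%) were lower and 77 (0.975%) higher. In the 137 genes with at least 5 such exons, the median SD over exons within a gene was 18.6 points in XO and 15.3 in XX. Exon means can rest on as few as 3 rows, and how much of this spread is measurement noise was not tested. Where exons were read by at least 10 rows with 4 or more on each strand, 1735 of 1975 (87.8%) were lower in XX, close to the 88.3% above. Of the 1975, 1441 were lower on both strands and 95 were higher on both strands, and 3 rose by at least 20 points.

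Titin shows this spread within a gene. Ttn, the giant spring protein of the sarcomere, had 253 exon rows at 39.6% ± 24.3 in XX and 61.9% ± 24.3 in XO, and 24 intron rows at 28.1% ± 20.8 and 40.5% ± 29.4. Among its 22 exons with at least 3 rows, 21 were lower in XX. XO ran from 23.6% in exon 217 (3 rows), where XX was 16.5%, to 92.3% in exon 321 (3 rows), where XX was 65.3%. Ryr1, the calcium release channel of skeletal muscle, had 209 rows at 13.9% ± 14.2 and 19.5% ± 20.9. Its exon 94 alone held 92 rows at 9.90% in XX and 7.04% in XO, whereas its exon 72, with 3 rows, was at 46.7% and 89.7%. In Hspg2, which encodes the basement membrane proteoglycan perlecan, neighbouring exons lay far apart, with 12.1% in XX and 12.9% in XO in exon 23 (11 rows) and 70.98% and 80.3% in exon 24 (8 rows). These genes were picked for their number of rows, and their exons after the values were seen.

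The genes were also read by function, with 12 lists of genes. Among matrix genes, collagens, the fibrous proteins of connective tissue, had a median of 32.5% in XX and 56.1% in XO over the 27 of 36 listed genes with at least 5 rows, above the 24.97% and 43.1% of all genes. The median over these genes of the CpG count near an exon row was 6, against 8 for all genes. Collagen introns had like medians, 34.5% in XX and 56.6% in XO over the 24 genes with at least 5 intron rows. All 27 were lower in XX in exons and 16 by at least 20 points, whereas 92.3% of all genes were lower and 34.8% by that margin. Col6a2 (60 rows) was at 36.8% ± 17.2 in XX and 65.3% ± 18.1 in XO, Col4a2 (58 rows), a basement membrane collagen, at 21.6% ± 20.01 and 42.0% ± 22.6, and Col18a1 (55 rows), the source of endostatin, at 34.5% ± 16.6 and 55.01% ± 14.6. Col4a2 introns were higher (38.3% and 57.5%) and Col18a1 introns lower (30.4% and 44.3%) than their exons. ADAMTS proteases, which cut matrix proteins, had the highest XO median of the lists, with 33.9% in XX and 57.8% in XO over 12 genes. They ranged widely in XO, from 18.04% in Adamts14 (13.6% in XX) to 71.9%, with Adamts20 at 34.8% in XX and 60.4% in XO and Adamts2 at 14.5% and 29.3%.

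Basement membrane genes were close to all genes, with medians of 28.1% and 45.7% over 14 genes. Of these, 13 were lower in XX, against 92.3% of all genes. Hspg2 was at 30.4% ± 19.8 in XX and 46.6% ± 26.2 in XO over 152 rows. The laminin subunit genes differed: Lama5 was at 31.5% ± 20.3 and 57.3% ± 21.03 over 54 rows, and Lamb2 at 22.6% ± 16.5 and 32.3% ± 19.9 over 30. In Lama5 the exons were 21.7 points above the introns in XO.

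Sarcomere and muscle genes had medians of 30.9% in XX and 47.6% in XO, and 18 of 18 were lower in XX, against 92.3% of all genes. Axonemal dyneins, the motors of cilia, had medians of 27.7% and 49.0%, with 10 of 10 lower in XX and 6 by at least 20 points, against 92.3% and 34.8% of all genes. Dnah10, Dnah2 and Dnah17 were at 27.5%, 25.3% and 21.8% in XX and at 43.8%, 42.2% and 37.0% in XO, over 79, 78 and 68 rows. In XO their exons differed from their introns by -3.97, 3.40 and -8.20 points.

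Synapse proteins and neuronal channels formed the list with the lowest levels, with medians of 19.4% in XX and 28.7% in XO over 30 genes. Of these, 28 were lower in XX and 5 by at least 20 points, against 92.3% and 34.8% of all genes. The median over these genes of the CpG count near an exon row was 11.5, against 8 for all genes. Their median exon minus intron difference in XO was -14.8 points over 28 genes, against -4.20 for all genes. Grin2c, an NMDA receptor subunit, was at 8.80% ± 10.03 in XX and 9.52% ± 16.1 in XO over 166 rows, with introns at 30.4% and 40.2%. Rims1, an organiser of synaptic vesicle release, was at 6.24% ± 7.79 and 13.1% ± 21.2 over 123 rows, and Bsn, the scaffold bassoon of the presynaptic zone, at 19.0% ± 18.6 and 26.8% ± 21.9 over 158 rows. The highest gene of this list reached 78.4% in XO.

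Transcription and chromatin genes had medians of 29.6% in XX and 52.5% in XO over 17 genes, all lower in XX, against 92.3% of all genes. Kmt2d, a histone H3K4 methyltransferase, was at 39.9% ± 21.9 and 57.2% ± 22.6 over 123 rows. Arid1b, a subunit of the BAF remodelling complex, was at 28.5% and 40.2%. Splicing factors had medians of 29.1% and 47.4% over 7 genes, all 7 lower in XX, against 92.3% of all genes. Dhx38, an RNA helicase, was at 32.0% and 52.3% and Sart3, a recycling factor of the spliceosome, at 29.1% and 53.7%. Snrnp200, a helicase of the same machine, was at 23.1% and 39.4% over 9 rows. DNA replication and repair genes had medians of 39.5% and 54.9% over 6 genes, all 6 lower in XX, against 92.3% of all genes. The median over these 6 genes of the CpG count near an exon row was 4.25, against 8 for all genes. Within this list Prkdc, the DNA-dependent protein kinase, fell from 55.7% ± 21.9 in XO to 17.4% ± 9.13 in XX over 11 rows. Pold1, a DNA polymerase subunit, was at 36.6% in XX and 46.4% in XO, and Mcm4, a subunit of the replicative helicase, at 33.2% and 47.1%.

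Aminoacyl-tRNA synthetase and translation genes had the smallest median difference of the lists, -6.91 points, with medians of 33.0% in XX and 46.8% in XO over 7 genes. Of these, 6 were lower in XX, against 92.3% of all genes. Aars, the alanine synthetase, was at 56.5% ± 16.1 and 72.0% ± 23.2 over 9 rows, Eif3c, an initiation factor subunit, at 14.2% and 21.1% over 10, and Farsa, a subunit of the phenylalanine synthetase, at 33.0% in XX over 10, which was 3.04 points above XO. With so few rows, the differences of the gene means in Aars, Eif3c and Farsa lay within the spread over rows. XX minus XO over forward and reverse rows differed in direction in Aars (-57.6 and 5.51 points) and Farsa (-8.76 and 8.10), but not in Eif3c (-10.2 and -3.62).

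Of the DNA methylation genes, 6 of 20 had at least 5 rows, with medians of 28.8% in XX and 44.1% in XO. All 6 were lower in XX, against 92.3% of all genes. The oxidase Tet3 was at 32.6% ± 17.5 and 49.5% ± 24.3 over 56 rows, its relative Tet1 at 27.9% ± 21.3 and 32.5% ± 29.02 over 12, and the maintenance methyltransferase Dnmt1 at 32.7% ± 16.9 and 55.8% ± 21.4 over 11. Of the naive pluripotency genes, 4 of 20 had at least 5 rows, with medians of 23.4% and 53.7%. Il6st, the LIF receptor subunit gp130, was at 26.4% ± 15.0 in XX and 69.2% ± 29.8 in XO, Pecam1, a surface adhesion protein, at 20.4% ± 7.68 and 43.1% ± 14.7, and Zfp42 (Rex1), a naive state marker, at 7.07% ± 6.72 and 15.3% ± 14.7. No listed gene with at least 5 rows rose by 20 points, as did 0.146% of all genes.

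**Figure D5:**
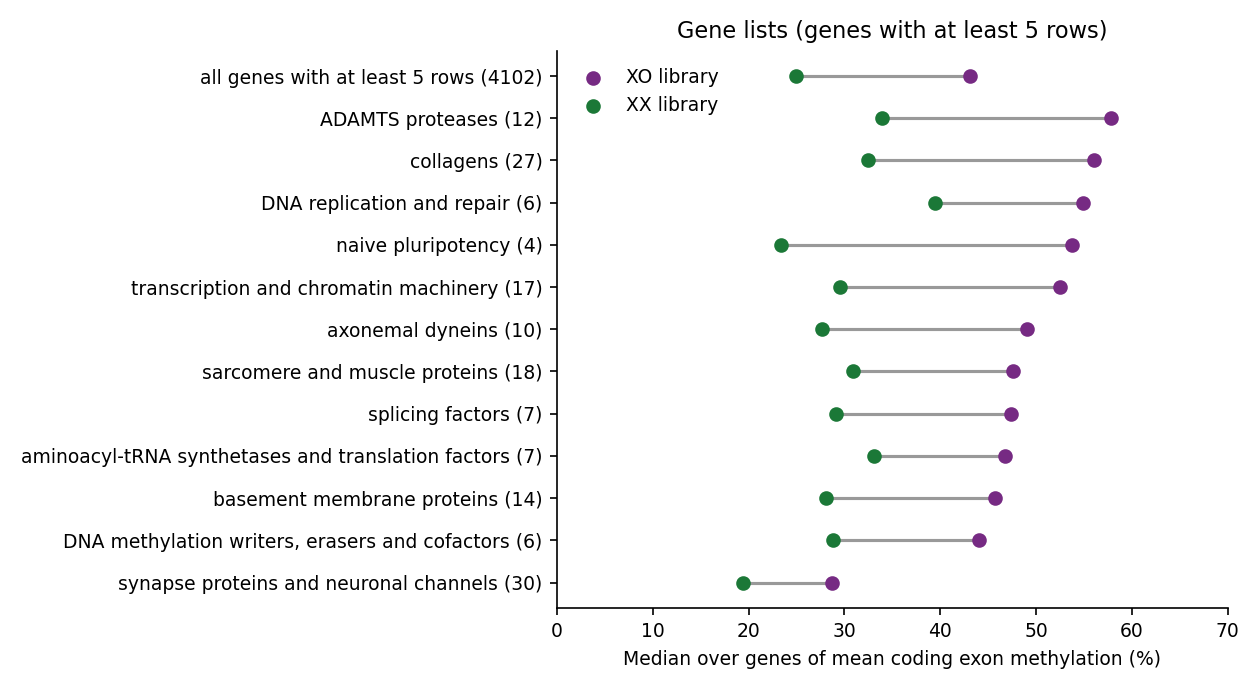
Median over genes of the mean coding exon methylation (%) in XX and XO for the 12 lists and for all genes with at least 5 rows, with the number of genes in brackets. Every list lies lower in XX, synapse proteins and neuronal channels are lowest (19.4% and 28.7%), and ADAMTS proteases and collagens are highest in XO (57.8% and 56.1%).

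Among the 1132 genes with at least 20 rows and at least 5 per strand, 1026 were lower in XX, against 92.3% of all genes with at least 5 rows. The largest fall was in Epha4, an ephrin receptor that guides axons, at 70.1% ± 16.4 in XO and 24.7% ± 16.7 in XX over 21 rows, with XX minus XO at -27.9 points over forward and -58.5 points over reverse rows. Its introns were at 47.8% and 23.7%, so its exons lay above its introns in XO and at about their level in XX. The next falls were in Med23, a subunit of the Mediator coactivator (59.4% to 22.4%), Cytip, a cytohesin-binding protein of lymphocytes (52.7% to 18.2%), Zim1, an imprinted zinc finger gene (57.1% to 22.6%), and Oprl1, the nociceptin receptor (58.7% to 24.6%). XX minus XO was of like size over forward and reverse rows in Zim1 (-34.5 and -34.4 points) and Oprl1 (-35.0 and -33.3), whereas it was -48.8 and -20.3 points in Cytip and -32.0 and -42.0 in Med23. As these genes were named for their falls, agreement between strands is no separate evidence of a fall.

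The highest values of XX minus XO were smaller. Prdm12, a regulator of pain-sensing neurons, was at 15.0% ± 16.9 in XX and 2.26% ± 3.51 in XO over 44 rows, with XX higher by 3.32 points over forward rows and by 22.2 over reverse rows. Nkpd1, a predicted NTPase, was at 30.7% ± 28.8 and 19.7% ± 24.0 over 48 rows, with XX minus XO at 24.2 and -3.40 points. In Prdm12 and Nkpd1 the rise was thus found mainly on 1 strand. The highest XX levels were in Wdr25, a WD-repeat protein (59.2% in XX and 70.4% in XO), Kif1c, a kinesin motor (52.0% and 51.4%), Zfp11, a zinc finger gene (51.9% ± 21.1 and 83.7% ± 14.8 over 45 rows), and Ncoa2, a nuclear receptor coactivator (49.7% and 66.3%). Kif1c was level between the libraries, while Zfp11 fell by 31.8 points and was still among the highest in XX.

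Exons with little methylation in either library were rich in CpGs. Of the 7898 exons with at least 3 rows, 178 (2.25%) were under 5% in both, with a median of 14 CpGs nearby against 8 in the others. With at least 20 rows there were 49 such exons in 47 genes, and 26 of them (53.1%) were the last coding exon, as were 53.9% of all 670 exons with so many rows. Among them were Marcks (4.45% in XX and 4.44% in XO), a protein kinase C substrate, Foxa1 (4.71% and 1.83%), a forkhead transcription factor, Gata4 (4.11% and 3.82%), a zinc finger transcription factor, Grik5 (1.92% and 1.66%), a kainate receptor subunit, Gdf15 (2.13% and 4.05%), a stress-induced cytokine, and Relb (2.65% and 4.21%), an NF-kB subunit. In the order named, these exons lay 2037, 2796, 4124, 4416, 2007 and 8727 bp from the nearest annotated start. Marcks and Gdf15 were thus close to the 2 kb limit. These names were chosen after their values were seen.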

How the data were processed

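RRBS libraries of FACS-sorted XX and XO Xmas mESCs (1 each, Zymo Quick DNA and NuGEN Ovation Methylseq kits per the labels) were analysed from the percent methylation per CpG cytosine that the authors deposited for both libraries. The submitters' processing notes name bcl2fastq, Bismark and mm10, and versions and the coverage minimum are not given in the sources used here. The table had 1782730 rows, 0 missing values, 0 repeated positions and 0 further columns of sample values.

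Rows were placed on GRCm38.p6 and GENCODE M21. Of the member rows, 2 lay on no CpG of the reference, 342 lay in coding sequence of more than 1 gene and were left out by gene and exon, and 81767 had an exon number. Exon numbers follow the transcript with the longest coding sequence. Means are over rows, and spread is the SD or quartiles over rows, exons or genes, which share a library and are not replicates. Levels at equal CpG count weight 8 classes of local CpG count as in all exon rows, if each class had at least 20 rows. Genes needed 5 rows and exons 3.

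Named genes were those with the 5 largest falls, the 5 highest values of XX minus XO and the 4 highest XX levels among genes with at least 20 rows (5 per strand), and the 3 genes with most rows of each list. Named exons needed 10 rows (4 per strand) and were not taken from chromosome 18, which left 1921 exons. Some genes that the rule names are not reported here. The members, lists and rules were chosen with earlier results of these data known. No test was made with 1 library per karyotype. The code was tested on simulated data. Python 3.11.15, numpy 2.4.6, pandas 2.3.3 and matplotlib 3.10.9 were used.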

Additional observations from a re-analysis of the deposited data

How the results depend on the processing

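No paired analysis was possible because there is 1 library per karyotype. Of 96 recalculated values, 78 kept their direction and lay within 1.5 times the reported value, 16 moved further and 2 changed sign; all 21 recalculated values of XX minus XO were below 0. The exon minus intron difference changed sign within classes of local CpG count, to 1.496 points in XO and 0.547 in XX. It moved to -6.12 in XO without CpG-dense sequence, to -6.11 in XO and -4.84 in XX with each exon or intron counted once, and to -4.72 and -4.64 with each gene counted once. The last minus second exon difference moved to -1.45 in XO and -0.507 in XX without CpG-dense sequence, to -9.14 and -5.22 with a distance limit of 5 kb, to -2.81 and -0.872 with each exon counted once, and to -1.21 and -0.343 within classes of local CpG count (an alternative chosen after seeing the data). The share of rows higher in XX was 9.17% at 10 points and 1.59% at 30 points, and the share lower was 20.7% at 30 points. The cause of these shifts was not tested. As depth is unknown, a value at 0% or 100% can rest on few reads. Means over rows weight exons by their number of rows, and with 1 library each, karyotype and library cannot be told apart.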

Other observations

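The same rule on chromosome X gave 808 coding exon rows and 1107 intron rows. X-linked exons averaged 20.3% ± 21.3 (SD over rows) in XX and 38.1% ± 31.0 in XO, a difference of -17.8 points, and the introns 19.7% ± 21.5 and 31.5% ± 31.0, a difference of -11.8 points. On chromosome X the exons were therefore above the introns in XO and about level with them in XX (20.3% against 19.7%). The exons had more CpGs within 100 bp on either side (12.9 on average, against 9.76). XX held 53.2% of the XO level in X-linked exons and 63.8% in autosomal exons. XX cells have 1 more X chromosome than XO cells, and the part of this in the values was not tested.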
